A study of Arabidopsis thaliana with 12 samples.

Results

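The genes described here had clear transcript signal in whole Arabidopsis thaliana seedlings and the least signal, by the size of the difference, in the shoot apex. Signals were MAS5 intensities of an expression array, on which a probe set is the group of probes that measures a transcript. A probe set was taken when, on the log2 scale with signals below 20 set to 20, its mean in the mock-treated apex lay at least 4 below its mean in mock-treated whole plants, with all 3 apex arrays below all 3 whole plant arrays. Of 22746 probe sets, 174 (0.765%) met this threshold, and 11 of them were left out by name because they belong to other gene groups, such as UDP-glycosyltransferases, tau-class glutathione transferases and beta-glucosidases. The remaining 163 are the members. The platform annotation pairs 72 of them with exactly 1 gene, gives several genes for 7 and does not list 84, so 72 genes can be named. The members were thus selected on the measured mock apex and whole plant values, and the difference between those 2 groups is given below as a description, with no test.

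The series holds 12 arrays of ecotype Col-0 in 4 groups of 3. Plants were grown from seed on 1/2 MS agar at 21 °C under 24 h light, with 0.1% DMSO as mock treatment (groups W_Mock and SAM_Mock), with 50 µM L-AOPP (SAM_L-AOPP), or with 50 µM L-AOPP and 10 nM IAA (SAM_L-AOPP+IAA). The part with the shoot apical meristem (SAM) was dissected with a micro knife, while W_Mock plants were frozen whole, so whole plants contain the apex as well as roots, hypocotyl and cotyledons. L-AOPP (2-aminooxy-3-phenylpropionic acid) is an inhibitor of phenylalanine ammonia-lyase and, per the series text, was studied here for inhibition of auxin biosynthesis, while IAA, or indole-3-acetic acid, is the auxin most abundant in plants. The labels give an age of 4 days and the series text 7 days, the DMSO content of the plates with L-AOPP is not given, and no whole plants with L-AOPP were analysed here. Whether replicates were separate cultures is not stated, and the p-values reflect only how far these samples spread, which may be technical variation.

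The shoot apical meristem is a small dome of dividing, thin-walled cells that produces leaf primordia. Mature tissues of a seedling carry gene programmes that the dome is not known for. Root hairs and other elongating or differentiated root cells secrete class III peroxidases, extensins and related wall proteins. The root endodermis and the cotyledon epidermis deposit suberin and cutin with the help of lipid transfer proteins and GDSL esterases. Leaf veins release sucrose through SWEET carriers as a step of phloem loading, and roots and leaf surfaces express chitinases, defensins and other antimicrobial proteins without infection. These arrays measured pieces of tissue and not single cells, so fewer cells of a type and less RNA per cell cannot be told apart.

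The dissection was visible in marker genes. The summed signal of CLV3, UFO, LAS and PHV, genes of the shoot meristem and its boundaries, ran from 340.8 to 408.7 on whole plant arrays, 1534 to 2021 on mock SAM arrays, 1344 to 1389 with L-AOPP and 1462 to 1787 with L-AOPP and IAA. PHV made up most of each sum, with group means of 286, 1322, 1103 and 1228.5 in the same order. The means of CLV3 were 24.6, 142.8, 74 and 107.2. Those of UFO were 32.3, 144.8, 83.4 and 145.1, and those of LAS 41.4, 142, 100.8 and 147.7. The root hair genes EXPA7 and XTH26 together ran from 260.7 to 368.1 in whole plants and from 6.3 to 24.2 over the 9 SAM arrays, near or below 20. The stomatal genes SPCH and FMA together overlapped between whole plants (197.3 to 289.7) and the mock SAM (156.2 to 250.9), but they differed from each other. FMA ran from 114.8 to 167.4 in whole plants and from 46.7 to 83.2 in the mock SAM, without overlap. SPCH ran from 72.1 to 122.3 in whole plants and from 82.7 to 204.2 in the mock SAM, with overlap. Array medians lay between 166.5 and 193.6. The GAPDH control's 3' over 5' signal ratio on the log2 scale, a sign of RNA quality, was 0.942 to 1.01 in whole plants, 1.39 to 2.1 in mock SAM, 1.39 to 1.63 with L-AOPP and 1.24 to 1.36 with L-AOPP and IAA. Its part in the results below was not tested beyond a fit with the ratio as a covariate. The ratio with L-AOPP and IAA overlapped that of neither other SAM group, so this fit cannot well separate ratio from treatment. Why calls were lost in it was not tested. On mock SAM replicate 3 the signal of the 25S rRNA control was 164.1, against 5170 to 10331 on the other 11 arrays, so this array stood apart in that control. Calls in the comparisons with mock are also given without it.

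Among all 163 members the mean whole plant signal ran from 321.6 to 16083 with a median of 833.7, and the median of the mean mock SAM signals was 17.8. After signals below 20 were set to 20, whole plants exceeded the mock SAM 16.1-fold to 195-fold, with a median of 31.1-fold, and for the 72 named genes 16.3-fold to 136-fold with a median of 29.9-fold. These folds understate the difference wherever a SAM array lay below 20. For 54 members, 27 of them named, all 3 mock SAM arrays lay at or below 20, so that the fold is a lower bound, and for 24 members, 11 of them named, all 9 SAM arrays did. A signal below 20 does not show that a transcript is absent, since no detection calls were used here. At the other end, 35 members, 12 of them named, stayed above 20 on all 9 SAM arrays. The named genes were spread over all chromosomes, with 15, 11, 15, 14 and 17 on chromosomes 1 to 5. The only directly neighbouring pair was AT3G16660 and AT3G16670, with 0 genes between them.

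**Figure D1:**
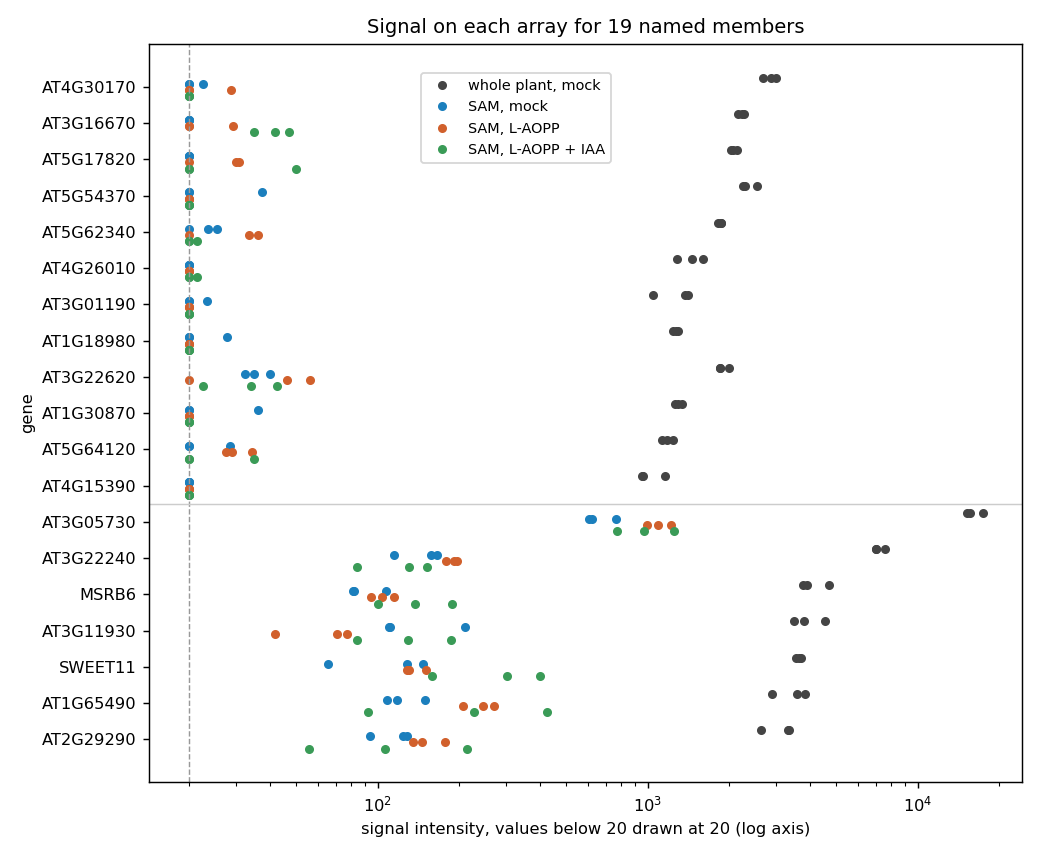
Signal intensity on each of the 12 arrays (log axis, signals below 20 drawn at 20, dashed line) for the 12 named genes with the lowest mock SAM minus whole plant difference (above the grey line) and the others of the 8 named genes with the highest whole plant signal (below it). Each point is an array, and for every gene shown the 3 whole plant points lie to the right of all 9 SAM points.

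Class III peroxidases, secreted enzymes that cross-link or loosen the cell wall with hydrogen peroxide, were the largest named family with 9 genes. AT4G30170 had the lowest difference of all named genes, at -7.09 on the log2 scale. Its signal was 2989, 2856.2 and 2664.6 on the 3 whole plant arrays, 2.5, 22.5 and 10.6 in the mock SAM, 2.7, 28.6 and 3.9 with L-AOPP, and 2.1, 9.7 and 12.7 with L-AOPP and IAA, which is 136-fold from whole plants to mock SAM with the floor. Only 2 of its 9 SAM arrays exceeded 20, so it was not tested between treatments. AT5G17820 had signals of 2031.9, 2150.2 and 2062.5 in whole plants against 5.5, 1.3 and 1.6 in the mock SAM, at least 104-fold. With L-AOPP it read 4.2, 30.6 and 30, and with L-AOPP and IAA 1.6, 11.8 and 49.8, so single treated arrays lay above 20 while the groups overlapped. AT4G26010 (at least 72.2-fold), AT3G01190 (60.2-fold), AT1G30870 (53.3-fold) and AT5G64120 (52.6-fold) had whole plant arrays between 1050 and 1600 and no SAM array above 36.2.

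AT2G18980 was the 1 peroxidase that stayed above 20 on all 9 SAM arrays. It read 1887.1, 1884.9 and 1891 in whole plants, 39, 77.3 and 58.7 in the mock SAM, 81.1, 71.2 and 92.2 with L-AOPP and 46.1, 39.2 and 56.6 with L-AOPP and IAA. All 3 arrays with IAA lay below all 3 with L-AOPP alone, but the difference of -0.79 ± 0.27 (SE) did not pass limma's adjusted p (0.295). AT5G66390 (29.8-fold at least) and AT3G49960 (24.2-fold at least) completed the family. Not every root peroxidase met the threshold: of 9 loci of a root peroxidase list paired with a probe set, 6 are members and 1 was left out by name. AT3G21770 was lower in the mock SAM than in whole plants by a smaller log2 difference of -1.58. AT4G11290 was close to the whole plant level, at -0.15. AT3G49960 did not exceed 1.9 on any SAM array. Of the 9 peroxidases 4 could be tested within the SAM and 0 passed in any of the 3 treatment comparisons by limma's adjusted p. At an unadjusted p below 0.05, 1 passed, AT2G18980 when IAA was added to L-AOPP.

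Structural proteins of the wall came next. AT3G16670, a protein related to the pollen allergen Ole e 1, read 2230.2, 2266.8 and 2169.7 in whole plants and 17.9, 20 and 7.7 in the mock SAM, at least 111-fold. It read 29.2, 3.8 and 16.1 with L-AOPP and 34.9, 41.7 and 47.1 with L-AOPP and IAA, so that all 3 arrays with IAA lay above the other 6 SAM arrays. Against mock this was 1.03 ± 0.26 (SE) on the log2 scale with floored values, with limma adjusted p 0.067, short of the threshold. Its neighbour AT3G16660, of the same family, read 603.5, 677.6 and 553.9 in whole plants and 28.9, 25.5 and 52.8 in the mock SAM, an 18-fold difference. With L-AOPP it read 49.4, 40.7 and 27.5 and with L-AOPP and IAA 19, 23.3 and 69.2, overlapping mock in both. Another gene of the family, AT5G10130, had whole plant signals of 940.5 to 1028.5 and no SAM signal above 16.8. Of the proline-rich extensin-like genes, AT3G28550 was 538.1 to 616.2 in whole plants and at most 9.6 in the SAM, while AT1G23720 was 553 to 619.8 and reached 34 in the SAM.

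Pectin is the gel of the primary wall, and its methyl groups are removed by pectin methylesterases that small inhibitor proteins hold in check. The inhibitor-like gene AT5G62340 read 1861.5, 1819.4 and 1863.7 in whole plants and 25.4, 11.6 and 23.5 in the mock SAM, 80.9-fold. It read 36, 33.3 and 19.1 with L-AOPP and 17.8, 21.4 and 13.9 with L-AOPP and IAA, with overlapping SAM groups. The pectin methylesterase gene AT5G04960 read 481.2 to 493.2 in whole plants and at most 15.6 in the mock SAM, at least 24.3-fold, and 18.3 to 33.2 with L-AOPP. Only 2 L-AOPP arrays of AT5G04960 lay above 20, and it was not tested.

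Genes for the lipid barriers of the plant surface and endodermis formed a further group. Of 4 lipid transfer protein-like genes, AT3G22620 read 1992.9, 1848.5 and 1851.2 in whole plants against 40.1, 34.8 and 32.2 in the mock SAM, 53.3-fold. It read 56.1, 46 and 11.6 with L-AOPP and 33.9, 22.5 and 42.3 with L-AOPP and IAA, and the SAM groups overlapped. AT2G48130 was 44.4-fold lower in the mock SAM than in whole plants, AT3G22570 at least 30.3-fold and AT5G13900 at least 16.7-fold. The 3 GDSL esterase/lipase genes were AT1G74460 (40.9-fold), AT2G23540 (at least 37.7-fold) and AT5G37690 (at least 23.5-fold).

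AT2G23540 was the member that entered the tests through a single group. It read 900.8, 741.6 and 642.4 in whole plants, 16.2, 15.5 and 16.9 in the mock SAM, 28.3, 32.7 and 35.7 with L-AOPP, and 11.5, 3.9 and 2.6 with L-AOPP and IAA. Only the 3 L-AOPP arrays lay above 20, and signals below 20 have no order, so mock and L-AOPP with IAA are not ranked against each other. With both of these groups held at the floor of 20, L-AOPP differed from either by the same 0.68 ± 0.24, and since the gene was tested only because it was high with L-AOPP, this difference is given as a value and supports nothing. It did not pass (limma adjusted p 0.177 against mock and 0.301 for added IAA). The difference from mock passed with no filter (limma adjusted p 0.0488), and that for added IAA with all 12 arrays and no floor (-2.72 ± 0.47, limma adjusted p 0.0138), where it rests on signals below 20. Of the 4 lipid transfer protein-like and 3 GDSL genes, 4 were tested, AT2G23540 among them, and 0 passed limma's adjusted p in any treatment comparison. Besides AT2G23540, the GDSL gene AT1G74460 passed at an unadjusted p below 0.05, for added IAA.

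The antimicrobial and pathogenesis-related group had 8 named genes. AT3G05730, for a defensin-like peptide, read 17421.9, 15201.5 and 15626.5 in whole plants and 605.4, 764.3 and 623.4 in the mock SAM, 24.3-fold, and its response to L-AOPP is given below. Chitinases, which cut fungal cell walls, were represented by AT1G02360 and AT2G43590, with whole plant arrays between 635.9 and 887.8 and no SAM array above 13.1. The glucanase gene AT4G16260 (19.3-fold) and the defensin gene PDF2.5 (21-fold) kept single SAM arrays near 50. PDF2.5 read 27.1, 15.4 and 33.5 in the mock SAM, 33.2, 23.7 and 53.7 with L-AOPP and 22.6, 26.8 and 34.3 with IAA added, without separation. The thionin gene AT1G66100 (29.1-fold), AT1G50060 of the PR-1-like secreted proteins (at least 27.2-fold) and the osmotin gene OSM34 (at least 16.7-fold) were at or below 21.7 on all SAM arrays.

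Small metabolic and stress-related families were present with 2 to 4 genes each. Late embryogenesis abundant-related proteins were encoded by 4 members, led by AT5G54370, which read 2294.6, 2551.8 and 2261.2 in whole plants and 7.5, 3 and 37.4 in the mock SAM, 96-fold. None of its 6 treated SAM arrays exceeded 6.6. AT5G60530 (at least 34.8-fold), AT3G19430 (at least 34.5-fold) and AT1G54890 (21.7-fold) were the others. AT3G19430 read 13.8, 18.9 and 19.6 in the mock SAM, 24.7, 37.1 and 27 with L-AOPP and 26.8, 32.1 and 26.7 with L-AOPP and IAA. Both treated groups of AT3G19430 lay above mock without overlap, and neither difference passed (0.54 ± 0.25, limma adjusted p 0.328, and 0.51 ± 0.25, limma adjusted p 0.355). All 3 mock arrays of AT3G19430 lay below 20, so it was tested through treated arrays only and could not fall with the floor. Its differences are given as values only.

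Dirigent proteins steer the coupling of phenolic radicals in lignan and lignin formation. The dirigent-like gene AT4G13580 read 516.7 to 553.8 in whole plants and 2.8, 5.5 and 2.2 in the mock SAM, at least 27-fold, and 17, 22 and 25.6 with L-AOPP. With the floor its difference was 0.16 ± 0.26 for L-AOPP against mock (limma adjusted p 0.825). For added IAA it was 0.02 ± 0.26 (limma adjusted p 0.992). All its mock arrays lay below 20, so it could not fall against mock. AT4G11190 read 425.8, 763.8 and 727.1 in whole plants, 37.8, 46 and 24.3 in the mock SAM, 32.4, 38.4 and 12.3 with L-AOPP and 18.4, 7.7 and 2.2 with L-AOPP and IAA, where all 3 arrays lay below all 3 mock arrays (-0.80 ± 0.31, limma adjusted p 0.232). Further enzymes were the germin-like AT1G18980 (56.9-fold), the BAHD acyltransferase AT4G15390 (at least 51.1-fold) and AT3G13610, which encodes F6'H1, the enzyme at the entry to coumarin synthesis. AT3G13610 read 531.8, 577.7 and 539.8 in whole plants and stayed at or below 20.4 on all 9 SAM arrays. The alcohol dehydrogenase-like AT1G22440 (27.9-fold) and AT5G42250 (21.5-fold) showed no separation between SAM groups.

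SWEET11, a sucrose efflux carrier of leaf phloem loading, read 3641.1, 3703.9 and 3531.8 in whole plants and 147.5, 129 and 65.7 in the mock SAM, 33.6-fold. It read 128, 151.4 and 131 with L-AOPP and 159.4, 301.4 and 400.3 with L-AOPP and IAA, and all 3 arrays with IAA lay above the other 6. The difference from mock was 1.31 ± 0.33 (limma adjusted p 0.069) and from L-AOPP alone 0.97 ± 0.33 (limma adjusted p 0.293), both short of the threshold. Against mock it passed under 4 of the alternatives, with limma adjusted p-values of 0.0414 with a pseudocount of 20, 0.0498 with a stricter filter, 0.0312 with all 12 arrays and the floor, and 0.0273 with all 12 arrays and no floor.

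AT3G11930, of the universal stress protein family, had its lowest values with L-AOPP. It read 4556.1, 3807.1 and 3488 in whole plants, 210.8, 110.6 and 111.4 in the mock SAM, 76.8, 70.6 and 41.6 with L-AOPP and 84.2, 129.6 and 186.3 with L-AOPP and IAA. All L-AOPP arrays lay below all arrays of the other SAM groups, at -1.18 ± 0.34 against mock (limma adjusted p 0.109) and 1.06 ± 0.34 for IAA added (limma adjusted p 0.259), neither of which passed. With all 12 arrays, no floor and the 30% dimmest probe sets left out, the first did (limma adjusted p 0.0472). The other gene of that family among the members, AT3G25930, was 32.5-fold higher in whole plants than in the mock SAM.

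The other members with high whole plant signal gave a mixed picture. MSRB6, a methionine sulfoxide reductase that repairs oxidised proteins, read 3884.6, 3771.2 and 4711.4 in whole plants, 107.3, 81.7 and 81.1 in the mock SAM, 114.8, 94.5 and 104.1 with L-AOPP and 187.9, 137.6 and 100.3 with IAA added. AT3G22240 read 7566.9, 6985.4 and 7020 in whole plants, 114.9, 157.6 and 166 in the mock SAM, 178.8, 192.3 and 196 with L-AOPP and 151.9, 83.7 and 130.3 with L-AOPP and IAA. For AT3G22240 all L-AOPP arrays were above the other 6 SAM arrays, without passing (0.39 ± 0.23, limma adjusted p 0.451, against mock).

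AT1G65490 read 3841.2, 2897.3 and 3567.6 in whole plants, 118.3, 108.6 and 149.2 in the mock SAM, 268.8, 244.7 and 206.5 with L-AOPP and 227.8, 424.8 and 92 with L-AOPP and IAA. Here the L-AOPP arrays lay above mock (0.94 ± 0.39, limma adjusted p 0.273) and the arrays with IAA scattered on both sides of them. AT2G29290, a short-chain dehydrogenase of the tropinone reductase type, read 3311, 3349.9 and 2618.6 in whole plants and 93.7, 128.4 and 123.9 in the mock SAM, 26.9-fold. It read 177.2, 135.4 and 145.6 with L-AOPP, above mock on every array (0.41 ± 0.37, limma adjusted p 0.661), and 106.6, 215 and 55.6 with IAA added.

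LTI30, a dehydrin induced by cold and drought, read 2320.9, 2340.4 and 2098.6 in whole plants, 86.3, 59.4 and 57.2 in the mock SAM, 54.9, 57.2 and 48.8 with L-AOPP and 48.3, 41.9 and 66.5 with L-AOPP and IAA. It was 33.9-fold lower in the mock SAM than in whole plants and did not separate the treatments by limma's adjusted p (-0.31 ± 0.25, 0.615, for L-AOPP against mock). AT5G23830, of the MD-2-related lipid-recognition proteins, read 1465.7, 1714.7 and 1684.2 in whole plants, 20.2, 63 and 33.9 in the mock SAM, 55.3, 92.3 and 79.3 with L-AOPP and 54.3, 50.1 and 100.6 with IAA added, and its difference of 1.08 ± 0.39 with L-AOPP did not pass (limma adjusted p 0.204).

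The threshold that chose the members cuts through a continuous range. The named members just inside it were AT5G20790 (log2 difference -4.02), AT5G13900 (-4.06) and OSM34 (-4.06). Just outside were AT2G41380 (less than 0.01 above the threshold), AT1G62510 (-3.98) and AT3G05920 (-3.98). AT1G62510 read 2769.7, 2199.1 and 1868.6 in whole plants and 119.5, 148.3 and 164.5 in the mock SAM, so all 6 arrays of a gene just outside were well above 20.

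The low level in the apex held under both treatments. With L-AOPP 141 of the 163 members were, and once IAA was added 152 were, still at a log2 difference of -4 or lower against mock whole plants, against 0.699% and 0.791% of all 22746 probe sets. All 163 had their 3 SAM arrays below all 3 whole plant arrays in each treated group, where 24% and 23.4% of all probe sets did. The median difference of the members from whole plants was -4.96 in the mock SAM, -4.78 with L-AOPP and -4.92 once IAA was added, and no member came closer to the whole plant level than -3.18 with L-AOPP or -3.38 with IAA added. The whole plant arrays are the ones that chose the members, and no treated whole plants entered, so these values describe levels and not a response of the whole plant.

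The first comparison within the SAM, L-AOPP against mock, addresses the response to the inhibitor. The mock arrays had been chosen to be low in these genes, so a higher value in any other SAM group is partly built into the choice. The summed signal of the 163 members was 5533, 5885 and 5609 on the mock arrays and 7516, 8143 and 7814 with L-AOPP, against 232174 to 240285 in whole plants. The number of members above 20 was 77, 78 and 79 in mock and 84, 103 and 95 with L-AOPP. All 3 L-AOPP arrays were thus above all 3 mock arrays in both measures. With a signal above 20 on at least 3 of the 9 SAM arrays, 103 of the 163 members could be tested and 60 could not, 1 of the 103 having passed through a single group. Tested members whose 3 mock arrays all lay at or below 20, such as AT3G16670 and AT5G17820, passed through treated arrays only. With the floor they could not fall in either comparison with mock. The counts by direction and the medians of those comparisons are thus partly set by the filter.

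By limma's adjusted p below 0.05, 4 of the 103 tested members rose with L-AOPP and 0 fell, where 0.603% of the 18902 probe sets tested rose and 0.873% fell. At an unadjusted p below 0.05 the members higher numbered 21 (20.4%) and those lower 2, beside 7.44% and 7.9% of all. The 21 include AT2G23540, which was tested only because it was high with L-AOPP. The median difference was 0.34 over the 103 members and 0.001 over all probe sets tested, and 75 of the 103 were above 0. The shoot meristem genes CLV3, UFO, LAS and PHV all had differences below 0 in the same comparison, with a median of -0.67, and 0 of 4 passed (lowest limma adjusted p 0.0752). Their part in the result was not tested. The 43 tested named genes had a median of 0.29, and 1 of them was called.

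**Figure D2:**
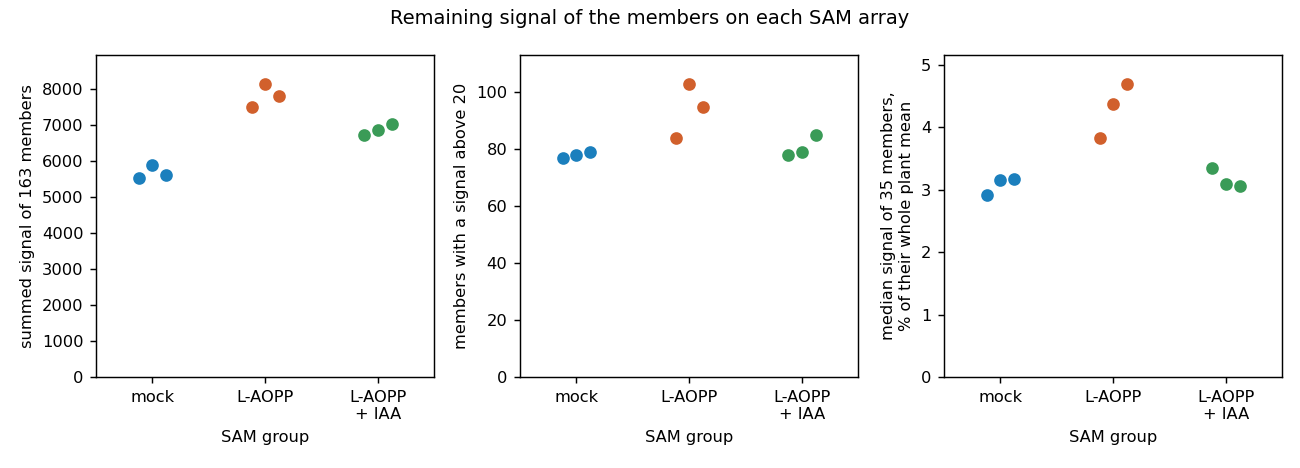
For each SAM array, the summed signal of the 163 members (left), the number of members above 20 (middle) and, for the 35 members above 20 on all 9 SAM arrays, the median signal as a percentage of their whole plant mean (right). Each point is an array, and the 3 L-AOPP points (7516 to 8143 on the left) lie above the 3 mock and the 3 L-AOPP + IAA points in the left and right panels.

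The named gene that rose was the defensin-like AT3G05730. It read 605.4, 764.3 and 623.4 in the mock SAM, 1087.7, 996.3 and 1224.9 with L-AOPP, and 1247.5, 771.2 and 967.8 with L-AOPP and IAA. Every L-AOPP array lay above every mock array, and the rise was 0.73 ± 0.15 on the log2 scale (n = 3 in each group, limma adjusted p 0.0376). With L-AOPP the gene still had a far lower signal than the 15202 to 17422 of whole plants. The call was lost without any 1 array other than mock replicate 2, with limma adjusted p-values of 0.111 to 0.153, and also in the fit that included the GAPDH ratio (0.64, limma adjusted p 0.253), with a floor at 50 (0.156), no filter (0.184) and no intensity trend (0.151).

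The other 3 called members are probe sets that the annotation used here does not list. Probe set 252618_at read 65.4, 58.2 and 94.7 in mock, 262, 291.2 and 196.9 with L-AOPP and 98.6, 179.6 and 72.9 with L-AOPP and IAA, a rise of 1.79 ± 0.30 with L-AOPP (limma adjusted p 0.0165). Probe set 254606_at read 25.4, 20.6 and 4.8 in mock, 48.2, 58 and 75.3 with L-AOPP and 23, 33.4 and 28.6 with IAA added, a rise of 1.44 ± 0.26 (limma adjusted p 0.0219). Probe set 245736_at read 84.5, 75.3 and 112.6 in mock and 244.9, 243.5 and 139.8 with L-AOPP, a rise of 1.18 (limma adjusted p 0.0406). In all 3 the L-AOPP arrays lay above the mock arrays without overlap. The 252618_at call was lost without L-AOPP replicate 1, L-AOPP replicate 2 or mock replicate 1 (limma adjusted p 0.0992, 0.105 and 0.0887), the 254606_at call without any 1 array but mock replicate 2 (0.0629 to 0.101), and the 245736_at call without any 1 array but L-AOPP replicate 3 (0.0592 to 0.18). The size for 254606_at depended on the floor, at 2.13 with no floor (limma adjusted p 0.0907) and 0.27 with a floor at 50 (0.426), and its call was also lost with a pseudocount of 20 (0.0501) and no filter (0.0753). The calls of 252618_at and 245736_at were lost with a floor at 50 (limma adjusted p 0.103 and 0.11), no filter (0.124 and 0.139) and no intensity trend (0.0903 and 0.105). Without mock replicate 3, which stood apart in the 25S rRNA control, 252618_at kept its call (limma adjusted p 0.0301). AT3G05730 (0.116), 254606_at (0.074) and 245736_at (0.0592) lost theirs. In the fit that included the GAPDH ratio 0 members were called, and the limma adjusted p of the 4 genes was 0.0971 to 0.253.

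Added IAA was compared with L-AOPP alone, which describes the members under added auxin in the presence of the inhibitor. The difference itself uses 6 arrays that did not choose the members. The shared estimate of spread and the filter also draw on the 3 mock arrays that did. The filter draws on the 6 compared arrays too. Members could be tested because they were high with L-AOPP, so the counts by direction and the median below are partly set by the filter. The summed signal of the members was 6737, 6854 and 7026 with L-AOPP and IAA, below all 3 arrays with L-AOPP alone. The number above 20 was 78, 79 and 85, against 84, 103 and 95 with L-AOPP alone, with overlap. For the 35 members above 20 on all 9 SAM arrays, the median signal was 3.82, 4.38 and 4.69% of the whole plant mean with L-AOPP and 3.35, 3.09 and 3.07% with IAA added, while the mock arrays had 2.92, 3.16 and 3.17%. In this comparison 3 of the 103 tested members fell and 0 rose, where 0.227% of all probe sets tested fell and 0.106% rose. At an unadjusted p below 0.05, 20 members (19.4%) were lower and 3 higher, beside 5.11% and 4.85% of all. The 20 include AT2G23540, which was tested only because it was high with L-AOPP. The median difference was -0.15 over the 103 and 0.003 over all, and 71 of the 103 were below 0. The same 4 meristem genes all had differences above 0 here, with a median of 0.50, and 0 passed (lowest limma adjusted p 0.139). Of a list of auxin response genes 6 were tested here, with a median difference of 0.08, and 0 passed (lowest limma adjusted p 0.765). For L-AOPP against mock the same 6 had a median of -0.31. There 0 were called higher and 1 lower, HAT2 (-0.75 ± 0.15, limma adjusted p 0.0287).

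Differences were also set against the depletion from the apex. Probe sets tested with a mock SAM minus whole plant difference of -4 or lower, those left out by name included, numbered 111 and had a median IAA difference of -0.13. It was -0.05 for the 162 between -4 and -3, 0.01 for the 426 between -3 and -2, -0.01 for the 1627 between -2 and -1, 0.01 for the 14173 between -1 and 1, and -0.01 for the 2403 above 1. For L-AOPP against mock the medians in the same order were 0.34, 0.13, 0.15, 0.10, 0.00 and -0.08, so values above 0 were shared by probe sets with smaller depletion from the apex, and probe sets higher in the apex lay below 0. The bins use the mock arrays that also enter the L-AOPP difference, which builds in part of that order. These medians are a description, and their differences were not tested.

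AT5G44380, for an FAD-linked oxidase of the berberine bridge enzyme family, whose studied members oxidise plant alkaloids, cell wall sugars or lignin precursors, was the named gene with the lower p. It read 968.8, 855.8 and 761.8 in whole plants, 44.4, 53.9 and 49.9 in the mock SAM, 60.1, 55.2 and 85.7 with L-AOPP, and 18.1, 22.7 and 4.1 with L-AOPP and IAA. All arrays with IAA lay below all other SAM arrays, and the L-AOPP arrays were the highest. The fall with IAA was -1.66 ± 0.24 with the floor (limma adjusted p 0.016), on a scale where 2 of the 3 IAA arrays are held at 20. It was no longer called without L-AOPP replicates 1, 2 or 3 (limma adjusted p 0.063 to 0.084), without L-AOPP with IAA replicate 3 (0.086), and with the GAPDH covariate (0.0572). With only the 2 groups in the fit, so that the mock arrays entered only the filter, the fall was not called either (limma adjusted p 0.0566). Its size depended on the floor, at -2.47 with no floor (limma adjusted p 0.0778) and -0.40 with a floor at 50 (0.474), and with no filter the adjusted p was 0.0835. The family's other member, AT4G20860, read 9.5, 11.7 and 2.6 with L-AOPP and 14.5, 44.4 and 11.1 with L-AOPP and IAA, and did not pass (0.38 ± 0.34, limma adjusted p 0.791).

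AT2G21045, an arsenate reductase that lets roots expel arsenic, read 2043.8, 2148.7 and 2182.3 in whole plants and 92.5, 127.2 and 136.9 in the mock SAM. It read 191.1, 107.5 and 158.5 with L-AOPP and 61.4, 15.8 and 42.8 with L-AOPP and IAA. The arrays with IAA lay below the other 6, and mock and L-AOPP overlapped. The fall with IAA was -1.98 ± 0.36 (limma adjusted p 0.0381). It did not pass without L-AOPP replicates 1, 2 or 3 (limma adjusted p 0.14 to 0.197), without L-AOPP with IAA replicate 2 (0.0631) or 3 (0.147), and with the GAPDH covariate (0.0961), a floor at 50 (0.139), no filter (0.265) or no intensity trend (0.181). Nor did it pass with only the 2 groups in the fit, where the mock arrays entered only the filter (limma adjusted p 0.12).

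The third called member was probe set 245736_at, which read 37.2, 41.6 and 43.2 with L-AOPP and IAA. Added IAA lowered it by -2.32 ± 0.25 on the log2 scale (limma adjusted p 0.00309), from the raised L-AOPP values to below every mock array. This call held without any 1 array and with the GAPDH covariate (-2.24, limma adjusted p 0.0217), and it was lost with a floor at 50 (-2.02, 0.0955) and with no filter (0.0929).

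**Figure D3:**
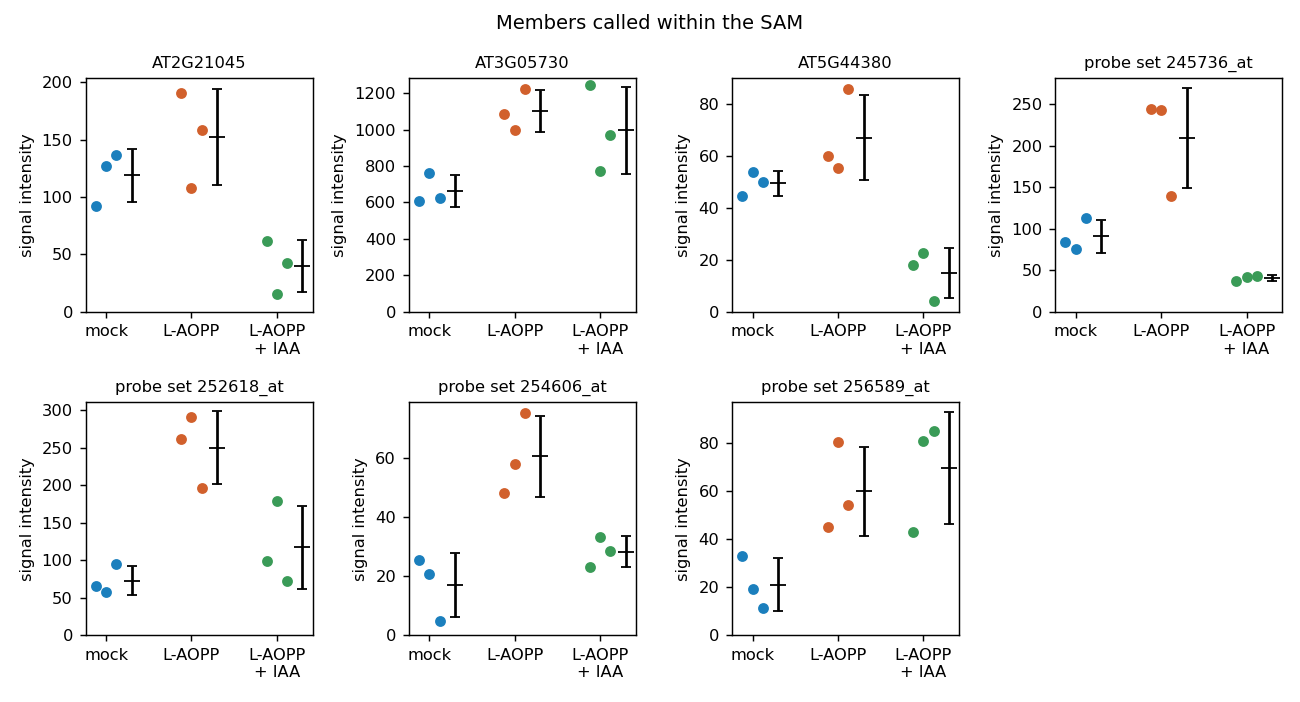
Signal intensity (linear axis from 0) of the 7 members called in at least 1 of the 3 comparisons within the SAM. Points are single arrays, and bars give the mean ± SD of 3 arrays. AT2G21045, AT5G44380 and 245736_at are lowest with L-AOPP + IAA, AT3G05730, 252618_at and 254606_at rise with L-AOPP, and 256589_at is higher with L-AOPP + IAA than in mock.

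L-AOPP with IAA against mock gives the net difference under both additions, and it shares the mock arrays with the rule and with the L-AOPP comparison. In it 1 of the 103 tested members was higher and 3 were lower by limma's adjusted p, where 0.593% of all probe sets tested were higher and 0.979% lower. At an unadjusted p below 0.05, 14 members were higher and 5 lower, beside 7.71% and 8.18% of all. The median difference was 0.09 over the 103 members and 0.003 over all. AT2G21045 was 1.65 ± 0.36 lower on the log2 scale (difference -1.65, limma adjusted p 0.042) and AT5G44380 1.24 ± 0.24 lower (difference -1.24, limma adjusted p 0.0273). Probe set 245736_at was lower as well (-1.14, limma adjusted p 0.0428).

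Probe set 256589_at was the member that was higher. It read 33, 19.1 and 11.2 in mock, 44.8, 80.3 and 54.2 with L-AOPP and 42.8, 80.7 and 84.9 with L-AOPP and IAA, a difference from mock of 1.49 ± 0.33 (limma adjusted p 0.0443). Both treated groups lay above mock without overlap. Without 1 array each of these 4 calls was lost at least once, and without mock replicate 3 all 4 were lost. AT5G44380 and 245736_at lost it without any 1 of the 6 arrays (limma adjusted p 0.055 to 0.0805 and 0.0523 to 0.146). AT2G21045 (0.0774 to 0.142) and 256589_at (0.0577 to 0.147) lost it without any but L-AOPP with IAA replicate 1. All 4 calls were lost with a floor at 50, where AT5G44380 was at -0.04 and 256589_at at 0.48, and with no filter (limma adjusted p 0.0745 to 0.192). With no floor AT5G44380 was at -2.05 (limma adjusted p 0.0775) and 256589_at at 1.79 (0.0571), both without a call. With the GAPDH covariate 0 of all probe sets were called in this comparison by limma's adjusted p, and 10 members passed at an unadjusted p below 0.05. The GAPDH ratio did not overlap between these 2 groups, so the fit cannot well separate it from the treatment. The differences in that fit were -1.69 for AT2G21045, -1.22 for AT5G44380, -0.96 for 245736_at and 1.70 for 256589_at.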

How the data were processed

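Total RNA of the 12 samples was hybridised as biotin-labelled cRNA, per the labels' protocols. The deposited table holds linear signal intensity per probe set, made by the authors with MAS5, per the submitters' processing notes, with the version not given; the mean after leaving out the lowest and highest 2% was 498.8 to 500.4 on every array. From these values log2 was taken with signals below 20 set to 20. Limma 3.58.1 (lmFit, eBayes with an intensity trend, R 4.3.3) was fitted to the 9 SAM arrays with 1 coefficient per group (6 residual degrees of freedom), over 18902 probe sets above 20 on at least 3 SAM arrays. P-values are two-sided, with Benjamini-Hochberg adjustment over all of them, and a call is an adjusted p below 0.05. The fit was tested on simulated data. The number of arrays, 3 per group, limits the precision.

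The 64 control probe sets were set aside. The platform annotation gives exactly 1 gene for 13513 of 22746 probe sets, several for 503, and does not list 8730; all 72 named members were found in the TAIR10.1 gene table, which served for names and neighbours. Roles are general knowledge.

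Named genes are those with 1 gene that were called in a comparison, the 12 with the lowest difference, the 8 with the highest whole plant signal, neighbours and members of a family, and the 3 nearest the threshold on each side. SWEET11, AT3G11930, AT3G16670, AT3G19430, LTI30 and AT5G23830 were described at length after their values were seen. Of 12 marker lists with 160 genes, 28 genes are paired with a probe set by the annotation, which is incomplete, so the others are not analysed here. Of the 28, 18 match the gene table by name, in 6 lists, and no member is among them; the root peroxidase list, with 6 members, is named by locus code and falls outside this match. Of the 6 lists with a match, those for the shoot meristem, root hairs and stomata are given, and that for auxin response for L-AOPP against mock and for added IAA. The members, the lists and the tests were chosen with earlier results of these data known. Promoter motifs were not analysed here.

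The replicate numbers were checked for pairing: deviations from the group means correlated at -0.166 to 0.133 between arrays of the same number and at -0.21 to 0.164 between others. These values gave no sign that the numbers pair the arrays, but so few arrays cannot exclude it.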

Additional observations from a re-analysis of the deposited data

How the results depend on the processing

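As reported, 4, 3 and 4 members were called for L-AOPP against mock, for IAA added to L-AOPP, and for both additions against mock. With a floor at 50 these were 0, 0 and 0 (13, 12 and 10 at an unadjusted p below 0.05), with no filter 1 (AT2G23540), 0 and 0, with no trend on intensity 1, 2 and 1, in the fit that included the GAPDH ratio 0, 1 and 0, and with only the 2 groups compared 4, 1 and 0. With all 12 arrays, no floor and the 30% dimmest probe sets left out they were 11, 7 and 8, and with all 12 arrays and the floor at 20, chosen after seeing the data, 9, 4 and 7; these fits share a spread with the whole plants. With the replicate block they were 2, 3 and 1, and whether the numbers pair the arrays is not known. For L-AOPP against mock, AT3G05730 and 245736_at lost their calls with the block (limma adjusted p 0.0683 and 0.0763). Leaving out 1 array each gave 0 to 4, 1 to 3 and 0 to 3. Without mock replicate 3, the counts against mock were 1 for L-AOPP and 0 for both additions. No called difference changed its direction under any of these. With no floor, a pseudocount of 20, quantile normalization and a filter of 6 of 9 arrays the counts stayed within 1.5 times those reported, although AT5G44380, 254606_at and 256589_at lost calls under some of them. The rule itself gave 163 members, 423 with no floor, 84 with a floor at 50, 165 after quantile normalization and 162 to 168 without 1 array. With a floor at 50, 74 (L-AOPP) and 80 (L-AOPP with IAA) of the members stayed at -4 or lower; these counts, 141 and 152 as reported, were looked at under other floors after seeing the data. The cause of these shifts was not tested, except that a higher floor makes every difference against a low signal smaller by construction. Signals below 20 have no order, and 60 of 163 members could not be tested for that reason.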
